A study of Mus musculus with 231 samples.

Results

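The mice compared here were the CM mice still sampled from month 7 after induction and the Ctrl mice of the same months. Counts of all training libraries labelled T7, T8, T9 or T10 were summed per mouse, so that each mouse gave 1 value. This gave 3 CM mice with 8 libraries (mouse 3336 at month 7, mouse 3368 at months 7 to 10, mouse 3370 at months 7 to 9) and 7 Ctrl mice with 27 libraries, which is 35 of the 231 libraries of the series. The other 4 CM mice of the training cohort had their last library at month 4, at month 6 or at the time labelled T6p5. The CM arm is therefore the part of that arm that was sampled longest, and what belongs to CM and what belongs to long survival cannot be told apart.

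The libraries hold microRNAs (miRNAs) of mononuclear cells from peripheral blood (PBMC), and the mice were C57BL/6. CM mice carried Cbfb56M/+ and Mx1-Cre, and injection of poly(I:C) switched on Cre and with it the fusion gene Cbfb-MYH11 (CM), the mouse counterpart of the fusion in human inv(16) acute myeloid leukemia (AML). The Mx1 promoter responds to interferon in blood cells and in other tissues. Both arms received 7 doses of poly(I:C) at 14 mg/kg, beginning at 6 to 8 weeks of age. All 3 CM mice bear the genotype code CHW, and Ctrl mice bear HW (mice 3335 and 3340), CW (mice 3339, 3342, 3346 and 3349) or WT (mouse 3350). These codes are not explained, and it is not certain from the sources whether a Ctrl mouse could carry an allele that was not switched on. CM mouse 3336 and Ctrl mice 3349 and 3350 were female and the other 7 mice male. In the titles, the running numbers of Ctrl mouse 3335 continue those of CM mouse 3334 from month 6 on, and the reverse. Counts of calls are therefore also given without mouse 3335.

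A miRNA is a short RNA cut from an arm (5p or 3p) of a hairpin precursor. It binds messenger RNAs mainly through its seed, bases 2 to 8, and lowers their translation and stability, so miRNAs with the same seed share many targets. In blood, miR-451a and miR-144 are typical of the erythroid lineage, miR-150 and miR-342 of mature lymphocytes, and miR-223 of granulocytes and monocytes. MiR-126 is known from hematopoietic stem and progenitor cells, from leukemia stem cells and from the endothelium.

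The sequences below are those of the miRNAs on which the results turn, as RefSeq gives them for GRCm38.p6, with the seed in capitals. Of the 67 miRNAs called in months 7 to 10, 62 had an entry, with 60 distinct seeds. The shared seeds were those of a let-7 pair and of a miR-148 pair. How often seeds are shared among all miRNAs tested was not counted. The first set holds miR-126a-3p (chr2:26591402-26591423, plus strand, inside Egfl7), miR-31-5p (chr4:88910614-88910635, minus strand, inside the non-coding gene Gm49890) and miR-27a-5p (chr8:84208685-84208706, plus strand, inside no other annotated gene), which were far above Ctrl in mouse 3336.
miR-126a-3p: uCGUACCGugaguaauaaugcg
miR-31-5p: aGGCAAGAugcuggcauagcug
miR-27a-5p: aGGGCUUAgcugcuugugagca

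The second set comes from the imprinted Dlk1-Dio3 locus on chromosome 12, where many miRNAs are expressed from the maternal chromosome. MiR-379-5p (chr12:109709065-109709085) and miR-411-5p (chr12:109710190-109710210) lie close together, inside no other annotated gene. MiR-541-5p (chr12:109742422-109742446) and miR-409-5p (chr12:109743172-109743194) lie inside the non-coding gene Mirg. All are on the plus strand, and no seed is shared among them.
miR-379-5p: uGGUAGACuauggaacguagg
miR-411-5p: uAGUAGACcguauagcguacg
miR-541-5p: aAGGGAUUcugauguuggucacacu
miR-409-5p: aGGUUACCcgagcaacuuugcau

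The third set is the neighbouring pair miR-298-5p (chr2:174267553-174267575) and miR-296-3p (chr2:174267058-174267079) on the minus strand of chromosome 2 at the imprinted Gnas locus, together with miR-499-5p (chr2:155622893-155622913, plus strand), which lies inside the myosin gene Myh7b and is known from heart and skeletal muscle.
miR-298-5p: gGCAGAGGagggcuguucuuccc
miR-296-3p: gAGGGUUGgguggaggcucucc
miR-499-5p: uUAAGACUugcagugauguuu

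The fourth set shows both pairs that share a seed. MiR-148a-3p (chr6:51269829-51269850, minus strand, inside the predicted gene Gm38821) and miR-148b-3p (chr15:103285185-103285206, plus strand, inside Copz1) were both higher in CM mice. Let-7g-5p (chr9:106178846-106178867, plus strand, inside Wdr82) was higher and let-7a-5p, shown for its copy at chr13:48538239-48538260 on the minus strand, inside no other annotated gene, was lower.
miR-148a-3p: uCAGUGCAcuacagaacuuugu
miR-148b-3p: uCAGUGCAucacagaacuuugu
let-7g-5p: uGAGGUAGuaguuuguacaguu
let-7a-5p: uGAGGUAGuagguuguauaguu

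The last set holds miRNAs that were below Ctrl in all 3 CM mice, miR-374b-5p (chrX:103573112-103573133, minus strand, inside the non-coding gene Ftx), miR-326-3p (chr7:99552328-99552348, plus strand, inside Arrb1) and miR-200c-3p (chr6:124718324-124718346, minus strand, inside no other annotated gene).
miR-374b-5p: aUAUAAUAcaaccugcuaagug
miR-326-3p: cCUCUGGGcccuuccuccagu
miR-200c-3p: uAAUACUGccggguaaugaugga

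The 35 libraries held 2228562 to 6317631 counts and 824 to 1072 detected miRNAs each. Summed per mouse, the totals were 3257019 in CM mouse 3336, 18608582 in CM mouse 3368 and 9681125 in CM mouse 3370, against 11795753 to 18366556 in Ctrl mice, so the values of mouse 3336 rest on the fewest reads. Levels are given per mouse as CPM (counts per 1000000 counts) after TMM scaling over the 10 mice, and levels of single libraries as CPM after TMM scaling over all training libraries, so the level of mouse 3336 and that of its single library differ by their scaling. The markers of mononuclear blood cells were abundant in both arms. MiR-150-5p of lymphocytes was at 28522, 20852 and 25563 CPM in mice 3336, 3368 and 3370 against 15174 to 32912 CPM in Ctrl mice, and miR-223-3p of myeloid cells at 3641, 5013 and 5603 CPM against 3813 to 5669.7 CPM. Red cell RNA was present too, with miR-451a at 26168, 81402 and 95087 CPM against 64916 to 111616 CPM, lowest in mouse 3336.

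In months 7 to 10 the CM mice differed from Ctrl mice in 67 of 702 miRNAs tested (9.54%, edgeR's quasi-likelihood test, Benjamini-Hochberg adjusted p under 0.05, as for all adjusted p below unless another tool is named). Of these, 48 were higher (6.84%) and 19 lower (2.71%). The largest increases were those of miRNAs of the Dlk1-Dio3 locus, miR-6390, miR-31-5p, miR-27a-5p, miR-126a-5p and miR-298-5p. The largest decreases at a mean of at least 10 CPM were those of miR-3473b, miR-5121, miR-872-3p and miR-345-5p. All 3 CM mice lay above all 7 Ctrl mice for 51 of the tested miRNAs (7.26%) and below them for 42 (5.98%). Of the called miRNAs, this held for 39 of the 48 that were higher and 18 of the 19 that were lower. The median log2 fold change over all 702 miRNAs was 0.01. With library totals and no TMM scaling, 38 were higher and 19 lower. Where tool and scaling changed together the counts were 66 and 42 by DESeq2 with its own size factors, and 43 and 27 by limma on the normalized values as deposited.

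**Figure D1:**
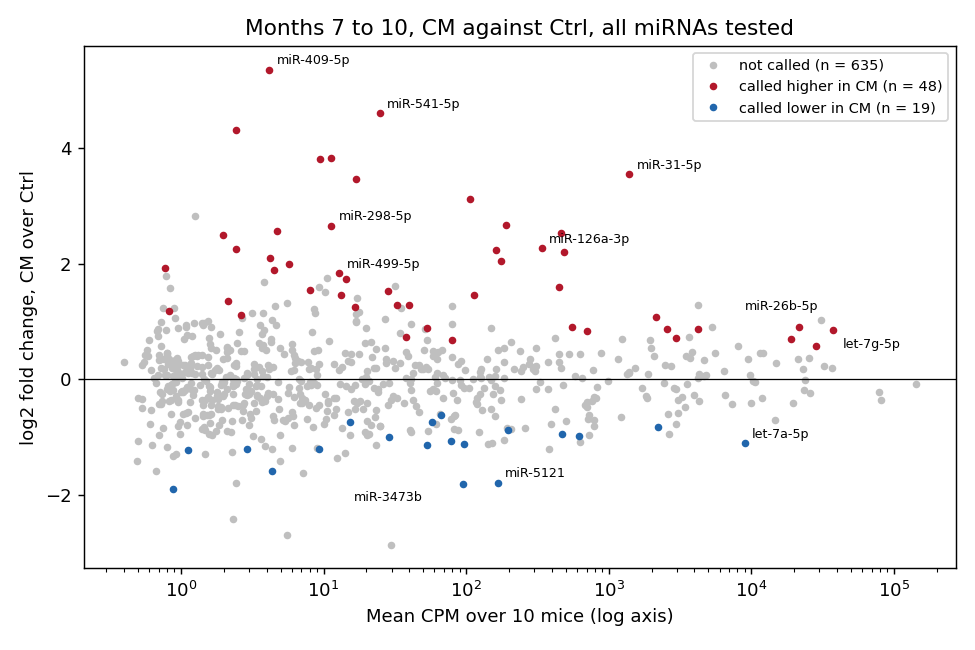
Each point is 1 of the 702 miRNAs tested, with its mean CPM over the 10 mice on the horizontal log axis and its fitted log2 fold change of CM over Ctrl on the vertical axis. Red points are the 48 miRNAs called higher, which reach 5.35 (miR-409-5p), and blue points the 19 called lower, which end at -1.90 (miR-3110-5p).

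The 3 CM mice were not alike. Among the 48 miRNAs called higher, mouse 3336 had the highest level of all 10 mice for 42. The median log2 ratio to the Ctrl mean over these 48 miRNAs was 2.10 in mouse 3336, 0.60 in mouse 3368 and 0.98 in mouse 3370. Over the 19 miRNAs called lower the medians were -1.33, -0.75 and -1.01, and mouse 3336 was the lowest CM mouse for 17. These ratios describe miRNAs chosen by the same comparison and carry no test.

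Without mouse 3336, 18 of 733 miRNAs were called (2.46%), 14 higher (1.91%) and 4 lower, and all 18 were among the 67. Without mouse 3368, 100 were called higher and 59 lower. Without Ctrl mouse 3335 the counts were 29 and 9, and without both 3335 and 3336 they were 12 and 3. Mouse 3336 was the one female among the CM mice, and with sex as a covariate 42 were called higher and 20 lower. The direction of each of the 67 miRNAs was kept when any 1 of the 10 mice was left out.

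**Figure D2:**
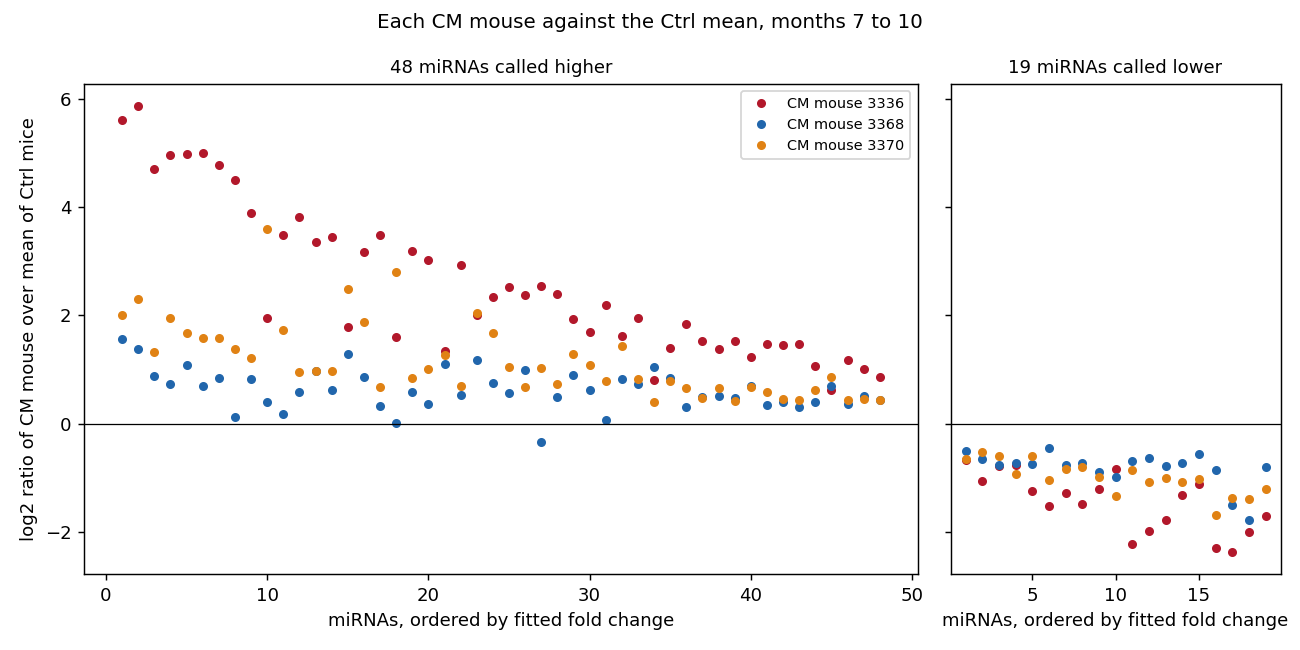
Log2 ratio of each CM mouse over the mean of the 7 Ctrl mice for the 48 miRNAs called higher (left) and the 19 called lower (right), ordered by fitted fold change. Mouse 3336 (red) stands highest for most miRNAs on the left, with a median of 2.10 against 0.60 in mouse 3368 (blue) and 0.98 in mouse 3370 (orange), and on the right all points lie below 0.

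The difference among CM mice lay in single libraries. In the month 7 library of mouse 3336, its last, 33.9% of the 702 miRNAs lay above or below all 27 Ctrl libraries. In the month 9 library of mouse 3370, also its last, the share was 20.2%, with 80 above and 62 below. For the other 6 CM libraries the share was 5.27% to 10.4%, and it was 8.26% in the last library of mouse 3368, at month 10. Both libraries that stood out, of mice 3336 and 3370, carry the number 3 after the letter G in their titles. The other 6 carry other numbers. Number 3 is also carried by 4 Ctrl libraries of these months. MiR-126a-3p averaged 7.23 in them, in log2 CPM. Ctrl means at the other numbers that held both arms were 7.01 to 7.24. MiR-31-5p averaged 7.80 in the same 4 libraries, with 7.58 to 8.23 at those other numbers. What the number after G means is not explained, and its bearing on the shares above was not tested. Of the 48 miRNAs called higher, 43 exceeded every Ctrl library in the last library of mouse 3336 and 36 in that of mouse 3370. In the other 6 libraries the number was 7 to 13. The 48 were called on sums that contain these same libraries, so the selection itself favours high counts here. These counts carry no test. Without the last library of each CM mouse, which leaves mice 3368 and 3370, 7 miRNAs were called higher and 3 lower. Both arms of miR-126a, miR-499-5p, miR-2137, miR-129b-3p and miR-872-3p were among them. MiR-541-5p, miR-6390, miR-298-5p, miR-874-3p, miR-374b-5p and miR-345-5p, which were called without mouse 3336, were not.

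**Figure D3:**
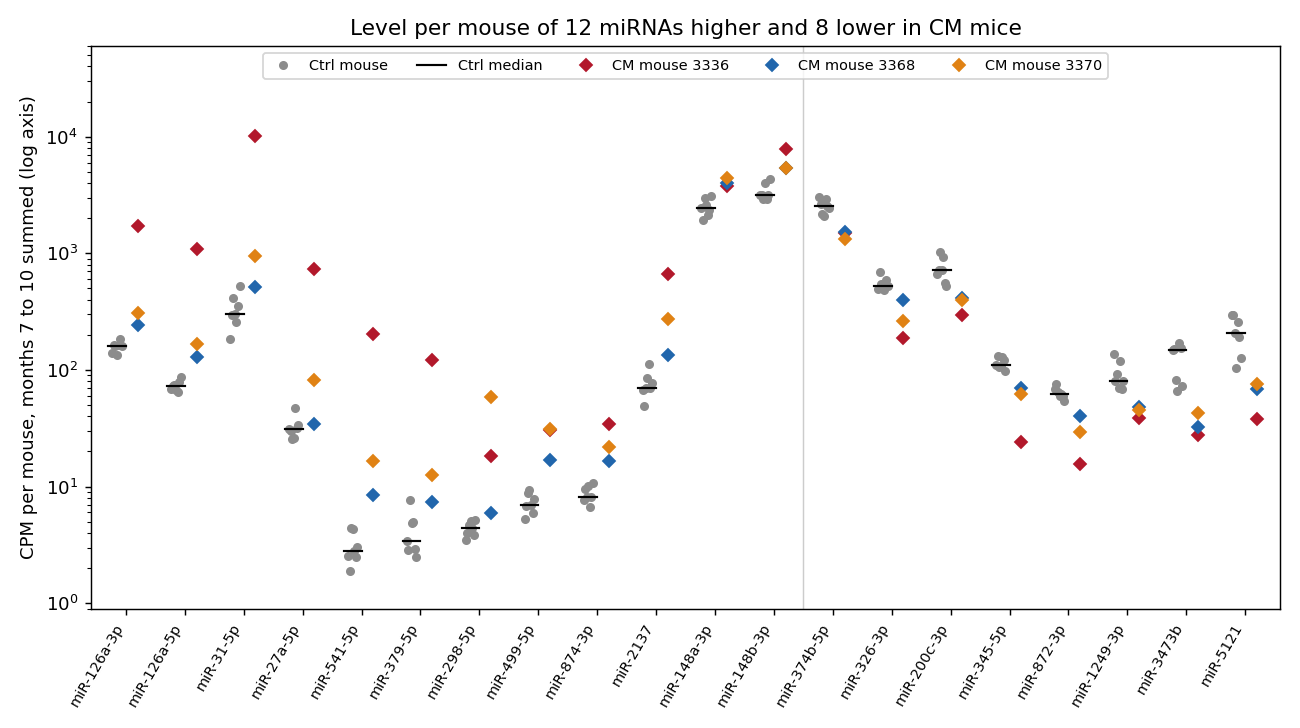
CPM per mouse, on a log axis, of 12 miRNAs called higher and 8 called lower in CM mice, with the 7 Ctrl mice as grey points, their median as a bar and the 3 CM mice as diamonds. Mouse 3336 is far above the others for miR-31-5p, miR-27a-5p, miR-541-5p and miR-379-5p, whereas the CM mice lie close together for miR-148a-3p and miR-374b-5p.

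Both arms of miR-126a, the miRNA on which the study centres, were higher in all 3 CM mice. MiR-126a-3p was at 1725 CPM in mouse 3336, 243 CPM in mouse 3368 and 311 CPM in mouse 3370, against 134.5, 161 and 185 CPM at the lowest, median and highest in Ctrl mice. The groups did not overlap, and mouse 3336 stood far above mice 3368 and 3370, which were nearer to Ctrl. The log2 fold change was 2.26 ± 0.45 (SE, as in the values below, adjusted p = 0.014), and without mouse 3336 it was 0.83, adjusted p = 0.018. Mouse 3336 enters with a single library.

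MiR-126a-5p was at 1092, 130.1 and 169 CPM in the same mice, against 64.3, 72.5 and 86.6 CPM at the lowest, median and highest in Ctrl mice, again without overlap. Its log2 fold change was 2.66 ± 0.49, adjusted p = 0.0095, and without mouse 3336 1.05, adjusted p = 0.015.

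By library, miR-126a-3p exceeded the highest Ctrl library (209.6 CPM) in 7 of 8 CM libraries. The exception was month 8 of mouse 3368, at 207 CPM. MiR-126-3p was also tested as the mean of log2(CPM + 1) per mouse in the table of normalized values. The CM mice were at 10.67, 7.85 and 8.26, and Ctrl mice at 7.20 ± 0.17 (SD, n = 7). The difference of 1.72 had p = 0.0167 in an exact two-sided permutation test over mice, the smallest p that 3 against 7 mice allow. Without mouse 3336 the difference was 0.85, with both remaining CM mice above all Ctrl mice and p = 0.0556 in the exact permutation test, the smallest that 2 against 7 mice allow.

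The titles carry an unexplained number after the letter G, and 5 of these numbers held late libraries of both arms. Within each, miR-126a-3p was higher in CM libraries, by 0.46 to 2.43 on the log2 scale. The 2.43 came from number 3, whose 2 CM libraries were those that stood out above. Of the 67 called miRNAs, 57 kept their direction in all 5 numbers, so this was common among called miRNAs. Each number held 1 or 2 CM libraries, and the same CM mice recur among them, so the 5 differences are not independent.

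MiR-31-5p had the highest level among the miRNAs with a log2 fold change above 3. It was at 10169.7 CPM in mouse 3336, 512 CPM in mouse 3368 and 953 CPM in mouse 3370, against 186, 301 and 522 CPM at the lowest, median and highest in Ctrl mice. Mouse 3368 lay inside the Ctrl range and both other CM mice above it. The log2 fold change was 3.54 ± 0.67, adjusted p = 0.011, and the call was lost without mouse 3336 (1.15, adjusted p = 0.091).

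MiR-27a-5p is the arm of its hairpin that is less abundant in these cells. It was at 728, 34.5 and 82.8 CPM in mice 3336, 3368 and 3370 against 25.7, 30.9 and 46.8 CPM at the lowest, median and highest in Ctrl mice (log2 fold change 3.12 ± 0.63, adjusted p = 0.014). Mouse 3368 again overlapped with Ctrl, and without mouse 3336 the call was lost (0.89, adjusted p = 0.11). The other arm, miR-27a-3p, was at 7443, 13969.6 and 9684 CPM against 7929 to 12202 CPM and did not pass the test (log2 fold change -0.04 ± 0.20, adjusted p = 0.91). Whether the arms differed in fold change was not tested.

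MiR-196b-5p, encoded among the Hoxa genes and known from leukemias with high Hoxa expression, was at 2572, 286 and 366 CPM against 184, 199.6 and 316 CPM (log2 fold change 2.20 ± 0.52, adjusted p = 0.025). Mouse 3368 overlapped with Ctrl, and without mouse 3336 the call was lost (0.50, adjusted p = 0.25). MiR-3963 was at 2671, 281 and 365 CPM against 134.8 to 233 CPM (log2 fold change 2.53 ± 0.52, adjusted p = 0.014), and miR-6390 at 83.2, 3.94 and 9.84 CPM against 1.601 to 3.08 CPM (log2 fold change 3.82 ± 0.66, adjusted p = 0.0085). Neither overlapped with Ctrl, and without mouse 3336 the call was lost for miR-3963 (0.78, adjusted p = 0.074) and kept for miR-6390 (1.63, adjusted p = 0.025).

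The Dlk1-Dio3 locus held the largest fold changes. Of 52 miRNAs listed for the locus, 7 passed the filter on low counts, and 4 of these were called higher and none lower (median log2 fold change 3.46). Over all 702 miRNAs tested, 6.84% were called higher and 2.71% lower, with a median of 0.01. A member high in the CM mice alone could pass the filter, so the count and median of the locus describe the 7 and say nothing of the rest. MiR-541-5p was at 202.8 CPM in mouse 3336, 8.47 CPM in mouse 3368 and 16.7 CPM in mouse 3370, against 1.88, 2.79 and 4.45 CPM at the lowest, median and highest in Ctrl mice (log2 fold change 4.60 ± 0.72, adjusted p = 0.0077). All CM mice lay above all Ctrl mice, and the call was kept without mouse 3336 (2.03, adjusted p = 0.018). It was lost without the last library of each CM mouse. By library, 4 of 8 CM libraries lay above every Ctrl library of these months and 1 lay below them all. MiR-409-5p was at 35.6, 1.69 and 2.48 CPM in mice 3336, 3368 and 3370 against 0, 0.278 and 0.605 CPM, which is 0 to 11 counts in Ctrl mice (log2 fold change 5.35 ± 0.90, adjusted p = 0.0077, without mouse 3336 2.79, adjusted p = 0.025).

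MiR-379-5p was at 120.6, 7.38 and 12.6 CPM in mice 3336, 3368 and 3370 against 2.48, 3.40 and 7.70 CPM in Ctrl mice (log2 fold change 3.46 ± 0.67, adjusted p = 0.013), with mouse 3368 inside the Ctrl range. MiR-411-5p was at 70.9, 4.26 and 6.73 CPM against 1.11, 1.64 and 3.74 CPM (log2 fold change 3.81 ± 0.69, adjusted p = 0.0095), without overlap. Both calls were lost without mouse 3336 (1.27, adjusted p = 0.11, and 1.54, adjusted p = 0.063). MiR-134-5p (chr12:109734145-109734166), which was not on the list, was at 19.8, 0.929 and 1.45 CPM against 0.0723 to 0.55 CPM (log2 fold change 4.31 ± 0.87, adjusted p = 0.014), without overlap, and its call too was lost without mouse 3336 (1.90, adjusted p = 0.074). The other 3 listed members that were tested did not pass, among them miR-127-3p at 4.94, 8.58 and 3.52 CPM against 2.44 to 6.05 CPM, highest in mouse 3368.

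At the Gnas locus another CM mouse was the highest. MiR-298-5p was at 58.4 CPM in mouse 3370, 18.3 CPM in mouse 3336 and 5.90 CPM in mouse 3368, against 3.47, 4.40 and 5.20 CPM at the lowest, median and highest in Ctrl mice (log2 fold change 2.65 ± 0.47, adjusted p = 0.0093). The groups did not overlap, and the call was kept without mouse 3336 (2.88, adjusted p = 0.018). It was lost without the last library of each CM mouse. MiR-296-3p was at 17.8 CPM in mouse 3370, 7.41 CPM in mouse 3336 and 2.13 CPM in mouse 3368, the last inside the Ctrl range of 1.81 to 2.46 CPM (log2 fold change 2.09 ± 0.44, adjusted p = 0.015). The other arm of the hairpin, miR-296-5p, did not pass (log2 fold change 0.20 ± 0.20, adjusted p = 0.53). In mouse 3370 the month 9 library stood apart, with miR-298-5p at 9.67 CPM at month 7, 11.04 CPM at month 8 and 153 CPM at month 9.

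MiR-499-5p was called in each of 25 alternative analyses. It was at 30.3 CPM in mouse 3336, 16.8 CPM in mouse 3368 and 30.96 CPM in mouse 3370, against 5.28, 7.01 and 9.34 CPM at the lowest, median and highest in Ctrl mice. All CM mice lay above all Ctrl mice, mouse 3368 the lowest of them (log2 fold change 1.83 ± 0.25, adjusted p = 0.0067). Its log2 fold change under the alternatives was 1.53 to 2.10, with a highest adjusted p of 0.032. With month 7 alone it was the one miRNA called (2.10, adjusted p = 0.0097). By library, miR-499-5p exceeded the highest Ctrl library (18.3 CPM) in 5 of 8 CM libraries. The other muscle miRNAs tested did not pass, with miR-1a-3p at 76.2, 150.2 and 304 CPM against 26.7 to 283 CPM and miR-133a-3p at 2.12, 6.12 and 12.2 CPM against 2.15 to 68.6 CPM.

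Other miRNAs were above Ctrl in each CM mouse and called with and without mouse 3336. MiR-874-3p was at 34.2, 16.5 and 21.8 CPM against 6.74, 8.22 and 10.6 CPM (log2 fold change 1.46 ± 0.24, adjusted p = 0.0077, without mouse 3336 1.15, adjusted p = 0.018). MiR-2137 was at 671, 135.2 and 273 CPM against 49.5, 69.6 and 113.03 CPM (log2 fold change 2.24 ± 0.38, adjusted p = 0.0077, without mouse 3336 1.44, adjusted p = 0.025). MiR-129b-3p, at low levels, was highest in mouse 3370, with 4.94, 3.34 and 8.28 CPM in mice 3336, 3368 and 3370 against 0.743, 0.905 and 2.36 CPM (log2 fold change 2.25 ± 0.38, adjusted p = 0.0077, without mouse 3336 2.31, adjusted p = 0.018).

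Some abundant miRNAs were also higher in CM mice, by smaller amounts. Both members of the miR-148 pair, whose known targets include a DNA methyltransferase, were higher. MiR-148a-3p was at 3797, 4000.5 and 4460.2 CPM in mice 3336, 3368 and 3370 against 1945, 2431 and 3072 CPM in Ctrl mice (log2 fold change 0.71 ± 0.16, adjusted p = 0.024), lowest of the CM mice in mouse 3336. MiR-148b-3p was at 7863, 5389 and 5341 CPM against 2919, 3169 and 4318 CPM (log2 fold change 0.87 ± 0.18, adjusted p = 0.014), highest in mouse 3336. Their CM and Ctrl mice did not overlap.

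Let-7g-5p was at 82220.5, 39925 and 41414 CPM against 25324, 31374 and 34574 CPM (log2 fold change 0.84 ± 0.21, adjusted p = 0.03), and miR-26b-5p at 49077, 23714 and 23638 CPM against 13672, 16847 and 21024.5 CPM (log2 fold change 0.91 ± 0.23, adjusted p = 0.03). MiR-142a-5p, from a hairpin typical of blood cells, was at 44639.8, 33251 and 33337 CPM against 21271, 24736 and 30085 CPM (log2 fold change 0.58 ± 0.15, adjusted p = 0.032). None of these overlapped between groups. Without mouse 3336 the calls for the miR-148 pair, let-7g-5p, miR-26b-5p and miR-142a-5p were lost. The log2 fold change was then no smaller for miR-148a-3p (0.78, adjusted p = 0.059) and smaller for miR-148b-3p (0.69, adjusted p = 0.074), let-7g-5p (0.44, adjusted p = 0.13), miR-26b-5p (0.49, adjusted p = 0.16) and miR-142a-5p (0.45, adjusted p = 0.13). The most abundant miRNA, miR-21a-5p, was at 134207, 141710.0 and 135203 CPM against 134627 to 174573 CPM and did not pass (log2 fold change -0.09 ± 0.13, adjusted p = 0.7). Of the other 6 among the 10 most abundant miRNAs beside miR-451a, miR-21a-5p, let-7g-5p and miR-142a-5p, none was called. These were let-7i-5p (-0.22), let-7f-5p (0.22), miR-486b-5p (0.19), miR-26a-5p (1.02), miR-29a-3p (-0.24) and miR-16-5p (0.37).

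The decreases were smaller. MiR-374b-5p was at 1479.6 CPM in mouse 3336, 1528 CPM in mouse 3368 and 1319 CPM in mouse 3370, against 2098, 2539 and 3061 CPM at the lowest, median and highest in Ctrl mice. All CM mice lay in a narrow band below all Ctrl mice (log2 fold change -0.82 ± 0.17, adjusted p = 0.014), and the value without mouse 3336 was nearly the same (-0.82, adjusted p = 0.026). MiR-345-5p was at 23.98, 70.4 and 62.6 CPM against 97.5, 109.7 and 132.3 CPM (log2 fold change -1.12 ± 0.29, adjusted p = 0.032), and miR-872-3p at 15.5, 40.5 and 29.5 CPM against 54.7, 62.3 and 75.8 CPM (log2 fold change -1.14 ± 0.26, adjusted p = 0.024). Both were lowest in mouse 3336 and did not overlap with Ctrl, and their calls were kept without that mouse (-0.76, adjusted p = 0.025, and -0.83, adjusted p = 0.027).

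MiR-326-3p, listed here for platelets, was at 189, 396 and 262 CPM in mice 3336, 3368 and 3370 against 485.97, 523 and 693 CPM in Ctrl mice (log2 fold change -0.95 ± 0.23, adjusted p = 0.025). MiR-200c-3p, a miRNA of epithelium, was at 293, 418 and 397 CPM against 520.4, 713 and 1024 CPM (log2 fold change -0.99 ± 0.24, adjusted p = 0.03), and miR-1249-3p at 38.8, 48.3 and 45.04 CPM against 69.2, 80.7 and 137.5 CPM (log2 fold change -1.07 ± 0.26, adjusted p = 0.025). For each of them the CM mice lay below every Ctrl mouse, and the call was lost without mouse 3336. The log2 fold change was then -0.71, adjusted p = 0.074 for miR-326-3p, -0.82, adjusted p = 0.11 for miR-200c-3p and -0.97, adjusted p = 0.087 for miR-1249-3p. MiR-574-5p, at 11.6, 19.8 and 18.9 CPM against 25.9, 34.4 and 42.95 CPM (adjusted p = 0.03), and miR-500-3p (log2 fold change -0.87 ± 0.23, adjusted p = 0.036) were also lower, without overlap.

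MiR-3473b was at 27.5, 32.2 and 42.5 CPM against 65.4, 149 and 169 CPM (log2 fold change -1.82 ± 0.37, adjusted p = 0.014), and miR-5121, annotated inside the small nucleolar RNA gene Snord33 within Rpl13a, at 37.7, 69.3 and 75.4 CPM against 103.2, 208.2 and 299 CPM (log2 fold change -1.79 ± 0.38, adjusted p = 0.015). The CM mice lay below all Ctrl mice for both, and without mouse 3336 both calls were lost with fold changes of similar size (-1.66, adjusted p = 0.059, and -1.51, adjusted p = 0.064). Single libraries varied widely, in mouse 3368 from 11.3 to 64.4 CPM for miR-3473b and from 14.5 to 157 CPM for miR-5121.

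Let-7a-5p was called lower (log2 fold change -1.10 ± 0.28, adjusted p = 0.031), at 5735, 5177 and 4019 CPM against 4853, 10631 and 13904 CPM, but the groups overlapped. Its libraries ranged from 354 to 11552 CPM within mouse 3368. On reads recovered from the table of normalized values, its log2 fold change was -0.09 (adjusted p = 0.7). Let-7 members differ by few bases, as the sequences above show, and counting can split their reads, so this value is uncertain.

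Lists of miRNAs are read beside the shares over all 702 miRNAs, of which 6.84% were called higher and 2.71% lower, with a median of 0.01. None of 7 erythroid (median log2 fold change 0.19), 4 lymphocyte (0.27) and 3 granulocyte and monocyte miRNAs tested (-0.19) was called. MiR-451a was not called, but in mouse 3336 it lay below every Ctrl mouse, and 2 CM libraries lay below every Ctrl library of these months, the last of mouse 3336 at 21407 CPM and the last of mouse 3370 at 25214 CPM against at least 43238 CPM. The summed level of the erythroid list ranged from 76021 to 176421 CPM in CM and from 103018 to 176122 CPM in Ctrl mice. In bulk PBMC, fewer cells of a type and less RNA per cell cannot be told apart. Of 4 platelet miRNAs tested (list median -0.25) 1 was called, miR-326-3p, which was lower.

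Of 13 miRNAs listed for stem and progenitor cells 3 were called higher (6.84% over all miRNAs), miR-196b-5p and both arms of miR-126a, while the median of the list was -0.54. MiR-99a-5p was at 711, 4954 and 2700.4 CPM in mice 3336, 3368 and 3370 against 2387 to 4302 CPM, and miR-130a-3p at 55.4, 615 and 361 CPM against 395 to 706 CPM. Mouse 3336 was thus far below every Ctrl mouse for these members and far above them for miR-126a and miR-196b-5p. Of 6 vessel wall miRNAs the arms of miR-126a were called and the other 4 were not. MiR-143-3p was at 68.4, 1010.4 and 555 CPM against 584 to 1131 CPM and miR-145a-5p at 3.53, 41.7 and 30.4 CPM against 31.9 to 58.1 CPM, lowest in mouse 3336, where miR-126a was highest.

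Of 9 epithelial miRNAs (list median -1.05) 1 was called, miR-200c-3p, which was lower. Of 5 muscle miRNAs tested (list median -1.22) 1 was called, miR-499-5p, which was higher. Of 3 liver miRNAs miR-192-5p was called higher, at 1139, 626 and 693 CPM against 374, 419 and 508 CPM (log2 fold change 0.89 ± 0.20, adjusted p = 0.02), without overlap. MiR-122-5p, the defining miRNA of hepatocytes, was at 1.06, 1.31 and 4.25 CPM against 1.57 to 2.87 CPM and was not called. None of 4 neuronal miRNAs tested was called (0.04).

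Of 11 miRNAs of the inflammatory response 3 were called higher (median 0.39), all from the neighbouring hairpins Mir132 and Mir212 on chromosome 11. MiR-212-5p was at 25.04, 2.08 and 7.04 CPM against 1.06 to 2.25 CPM (log2 fold change 2.56 ± 0.54, adjusted p = 0.015), miR-132-5p at 26.8, 3.83 and 6.32 CPM against 1.89 to 3.80 CPM (log2 fold change 1.99 ± 0.48, adjusted p = 0.025) and miR-132-3p at 128.03, 28.9 and 48.2 CPM against 21.3 to 33.4 CPM (log2 fold change 1.28 ± 0.35, adjusted p = 0.036). Mouse 3368 was inside or just above the Ctrl range, and none was called without mouse 3336. MiR-155-5p (log2 fold change 0.24 ± 0.25, adjusted p = 0.57) and miR-146a-5p (log2 fold change -0.19 ± 0.16, adjusted p = 0.48), regulators of inflammatory signaling, did not pass.

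The counts of families and loci are small and stand beside shares over all miRNAs of 6.84% higher and 2.71% lower. Here 1 of 9 let-7 members was called higher and 1 lower (median 0.02). Calls of higher level were 2 of 7 in the miR-23, miR-24 and miR-27 clusters (-0.04), 1 of 4 in the miR-191 and miR-425 cluster (0.57) and 2 of 3 at the Gnas locus (2.09). Calls of lower level were 1 of 6 in the miR-29 family (-0.30), 1 of 2 in the miR-34 family (-0.16) and 1 of 8 in the X chromosome cluster of miR-188 to miR-660 (0.08). The members called here and not yet given were miR-27b-3p (log2 fold change 1.08 ± 0.27, adjusted p = 0.03), miR-191-5p (log2 fold change 0.69 ± 0.20, adjusted p = 0.045), miR-29a-5p (log2 fold change -0.75 ± 0.19, adjusted p = 0.03) and miR-34c-5p (log2 fold change -1.21 ± 0.31, adjusted p = 0.031). No member was called among 18 of the miR-17-92 clusters (0.20), 7 of the miR-30 family (-0.02), 6 of the miR-181 family (-0.57), 7 of the miR-15 and miR-16 family (-0.17), 4 of miR-221 and miR-222 (-0.56), 4 of the miR-130 and miR-301 family (-0.38), 4 of the miR-182, miR-183 and miR-96 cluster (-0.34), 2 of the Mest locus (-0.08) and 2 of miR-193 and miR-365 (0.42).

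**Figure D4:**
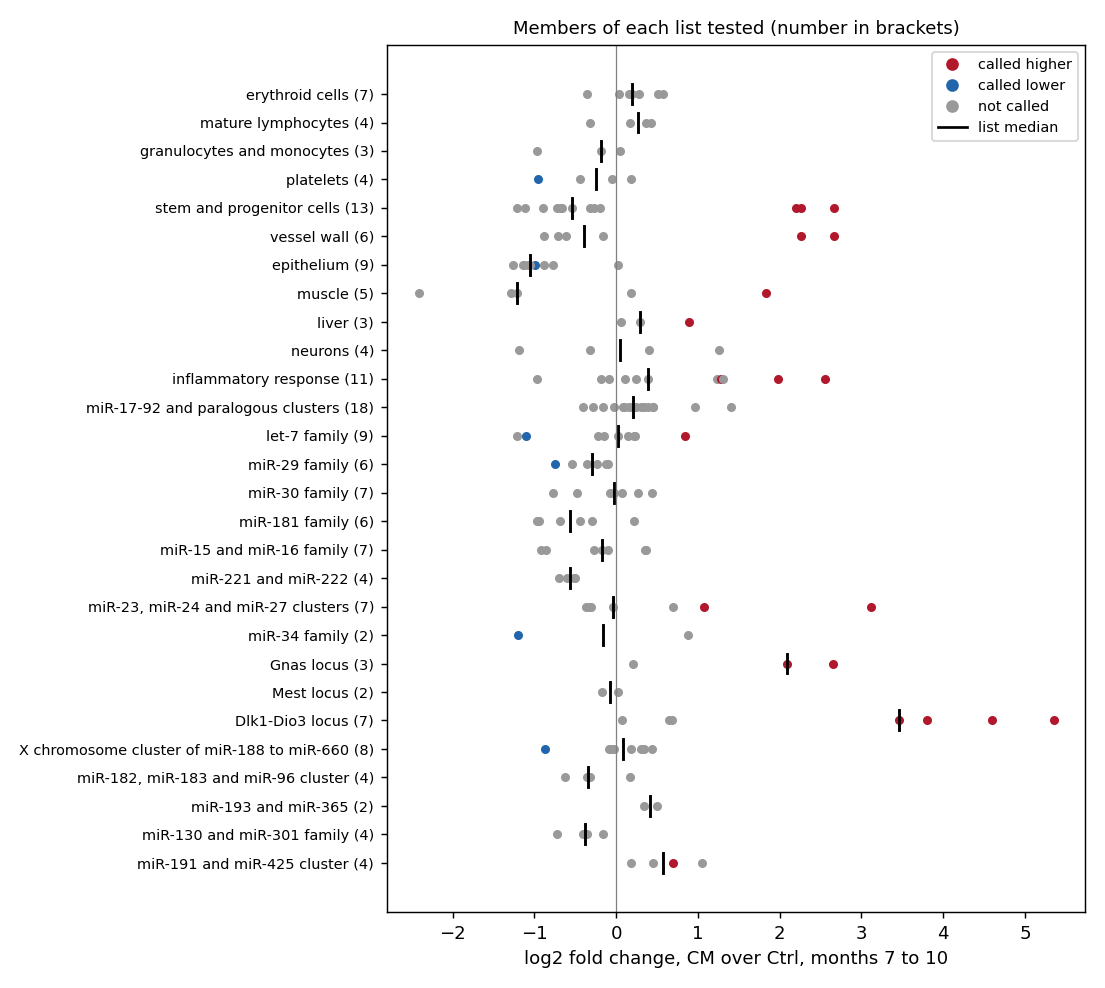
Log2 fold change of CM over Ctrl in months 7 to 10 for each tested member of the 28 lists, with the median of the list as a black bar. Red points were called higher, blue points lower and grey points not called, and the medians furthest from 0 are those of the Dlk1-Dio3 locus (3.46) and the Gnas locus (2.09).

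Levels by library are given for miRNAs described above. In mouse 3336, miR-541-5p was at 2.92 CPM at month 5, 32.6 CPM at month 6, 258 CPM at T6p5 and 166 CPM at month 7. MiR-126a-3p was at 254, 341, 315 and 1412 CPM and miR-31-5p at 885, 1372, 1707 and 8319.6 CPM at these times. The Dlk1-Dio3 miRNA was thus high already at T6p5, and the steep step of miR-126a-3p and miR-31-5p lay between T6p5 and month 7. MiR-499-5p went the other way, from 142.9 CPM at T6p5 to 24.8 CPM at month 7. The other library labelled T6p5, the last of CM mouse 3334, had 156.5 CPM. In the last libraries of the other CM mice miR-499-5p was at 8.08 to 50.1 CPM.

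In mouse 3368, miR-126a-3p stayed between 207 and 267 CPM and miR-31-5p between 361 and 627 CPM over months 7 to 10. MiR-541-5p was at 5.27, 5.87, 8.85 and 13.3 CPM at months 7, 8, 9 and 10, each value above the one before, and the highest Ctrl library of these months had 5.88 CPM. In mouse 3370, miR-541-5p was at 37.4 CPM at month 5, 0.624 CPM at month 7, 5.07 CPM at month 8 and 43.7 CPM at month 9. Months 5 and 9 stood out in this mouse, and miR-126a-3p was also highest then, at 509 and 464 CPM. These are single libraries and carry no test.

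Over all months the highest Ctrl library was month 6 of mouse 3335 for both miR-126a-3p (581 CPM) and miR-31-5p (1460.0 CPM). For miR-126a-3p it lies above each library of mice 3368 and 3370 given here and above those of mouse 3336 before month 7. It is the library at which the title numbers of mice 3335 and 3334 cross, and its G number and the last number of its title do not go together as they do in other titles, nor do those of the month 6 library of mouse 3334. Whether these libraries were exchanged was not tested, and both the Ctrl range over all months and the values of months 1 to 6 rest on the labels as given.

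**Figure D5:**
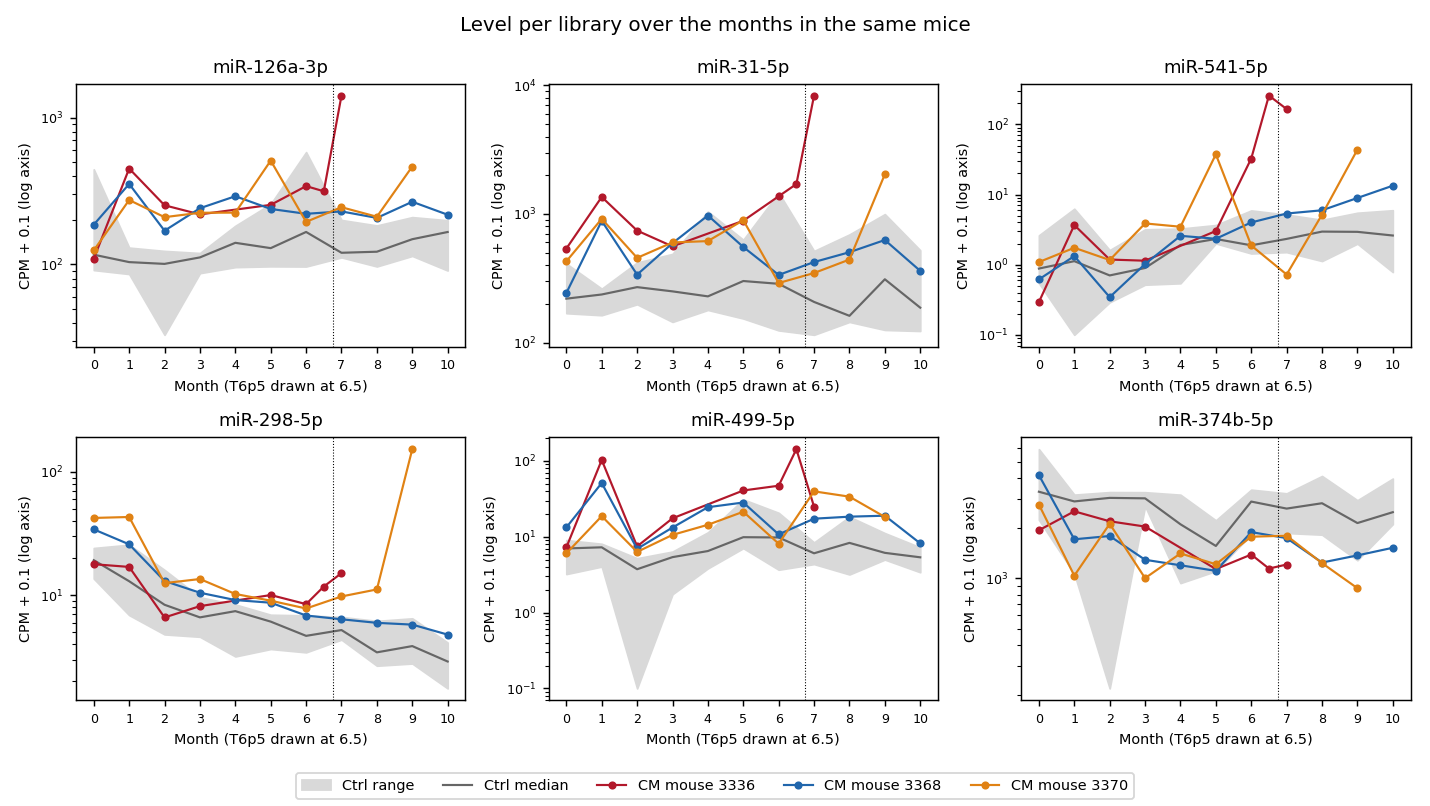
CPM + 0.1 per library, on log axes, over the months for the 3 CM mice (coloured lines) and the range and median of the 7 Ctrl mice (grey), with months 7 to 10 to the right of the dotted line. MiR-126a-3p and miR-31-5p step up in the last libraries of mice 3336 and 3370 and not of mouse 3368, and miR-298-5p reaches 153 CPM in mouse 3370.

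The last libraries can be set beside those of the 4 CM mice that were not sampled later. MiR-126a-3p was at 1412 CPM in the last library of mouse 3336, 464 CPM in that of mouse 3370 and 218 CPM in that of mouse 3368, and at 1377 to 4584 CPM in the last libraries of those 4. MiR-31-5p was at 8319.6, 2034 and 361 CPM, and at 5838 to 14846 CPM in those 4. The last library of mouse 3336 thus lay within the range of those 4 mice for both miRNAs, and those of mice 3370 and 3368 lay below it. MiR-298-5p, at 15.004, 153 and 4.69 CPM, ranged from 8.60 to 392 CPM in those 4, and miR-541-5p, at 166, 43.7 and 13.3 CPM, from 4.13 to 175 CPM.

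In months 1 to 6 of the same 10 mice, 149 of 833 miRNAs were called (17.9%), 12.2% higher and 5.64% lower. Of the 48 miRNAs higher in months 7 to 10, 28 were also called higher then, which is 27.5% of those called higher in months 1 to 6, and of the 19 lower, 11 were also called lower, of 47 in months 1 to 6. The mice are the same in both periods, so these counts are not independent. MiR-126a-3p (1.09, adjusted p = 0.0027), miR-499-5p (2.06, adjusted p = 0.0035) and miR-541-5p (3.32, adjusted p = 0.0049) were called in both periods. MiR-27a-5p (-0.27, adjusted p = 0.53), miR-3963 (-0.10, adjusted p = 0.8) and miR-142a-5p (-0.02, adjusted p = 0.91) were not called in months 1 to 6. All 7 members of the erythroid list were called higher in months 1 to 6 and none in months 7 to 10. Of the 5 muscle miRNAs tested in months 7 to 10, 4 were called higher in months 1 to 6 and 1 in months 7 to 10. At month 0, 0 of 530 miRNAs were called by edgeR (0%), with 51 at an unadjusted p under 0.05, and DESeq2 called 6 higher and 4 lower.

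The difference between the periods was tested as the interaction of arm and period. By edgeR none of 861 miRNAs passed (0%), 14.9% had an unadjusted p under 0.05, and DESeq2 called 8 higher and 4 lower. With the mouse as a replicate block, 0 were called and 12.4% had an unadjusted p under 0.05. By edgeR with all 10 mice, the calls in one period and not in the other are therefore not shown to differ. Without mouse 3368 edgeR called 18 higher and 6 lower for the interaction. The smallest p were those of miR-6390 (3.16 ± 0.74, adjusted p = 0.15) and miR-27a-5p (3.25 ± 0.77, adjusted p = 0.15).

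Within the arms, 259 of the 861 miRNAs were called between months 1 to 6 and months 7 to 10 in the 7 Ctrl mice (30.1%) and 9 in the 3 CM mice (1.05%). These contrasts came from the fit without the mouse as a replicate block, so they ignore the pairing of the periods. The arms differ in number of mice, so these shares do not compare how much each arm changed. That comparison is the interaction, where edgeR called 0. MiR-27a-5p fell in Ctrl mice (-2.11, adjusted p = 0.0011) and had 1.14 in CM mice (adjusted p = 0.41). MiR-146a-5p fell in both arms (-0.94 in CM mice, adjusted p = 0.017, and -0.89 in Ctrl mice, adjusted p = 3.1e-05), and miR-2137 rose in both (1.78, adjusted p = 0.023, and 0.81, adjusted p = 0.014).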

How the data were processed

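Small RNA libraries of PBMC were sequenced by the authors. Per the study's methods, adapters were trimmed with cutadapt, reads longer than 16 bases were aligned with Bowtie and mature miRNAs of miRBase were counted. The methods name the genome build mm9 and the submitters' processing notes GRCm38, and no coordinates of the files were used here. The authors deposited a table of raw counts and a table of CPM after TMM scaling in edgeR, which is treated here as signal because the scaling moves its totals. Of the values of the deposited signal table, 100% were whole multiples of a step within a tolerance of 0.02, and edgeR on the reads recovered from it called 59 of 683 miRNAs higher and 18 lower. Every column used was matched to a sample by its title, and 0 columns were left without one. The validation cohort, sampled at other points, was not used here.

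Training counts were summed per mouse over months 7 to 10, months 1 to 6 (T6p5 included) and month 0, filtered with filterByExpr on the arm, scaled by TMM and fitted with the quasi-likelihood test of edgeR 4.0.16 (R 4.3.3). Benjamini-Hochberg adjustment ran over all miRNAs tested. Alternatives used limma 3.58.1 and DESeq2 1.42.0, and the fits were tested on simulated data. Tables and figures used Python 3.11.15, pandas 2.3.3 and matplotlib 3.10.9. One value per mouse was used because libraries of a mouse are not replicates. The periods pair by mouse, since the labels give the same mouse number in both, and a fit with the mouse as a replicate block was run as an alternative. The G numbers were treated as an unexplained grouping of the titles. Libraries were randomized to batches per the labels, without a batch given for each.

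The mice and the miRNA lists were chosen with earlier results of these data known. MiRNAs are named by a rule: miR-126a, for higher and for lower calls the 10 that changed most among those averaging 10 CPM or more, the 10 most abundant, the most abundant members of each list and those with the largest interaction. MiR-129b-3p, miR-132, miR-134-5p, miR-148a-3p, miR-148b-3p, miR-212-5p, miR-26b-5p, miR-3110-5p, miR-374b-5p, miR-409-5p and miR-874-3p, and some members of lists, were named after their values were seen. Sequences are from RefSeq on GRCm38.p6. Counts are of reads, so low counts carry counting error beside the spread between mice.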

Additional observations from a re-analysis of the deposited data

Results flagged for a closer look

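Each of the 67 called miRNAs was examined for a Ctrl mouse far from the other 6, by Dixon's criterion at 95%, which chance meets in about 1 in 20 groups. It was met by 4. MiR-27a-5p was at 46.8 CPM in Ctrl mouse 3346, with the nearest mouse at 33.8 CPM, and miR-211-5p at 9.88 CPM in the same mouse, with the nearest at 22.0 CPM. MiR-129b-3p was at 2.36 CPM in Ctrl mouse 3340, with the nearest at 1.19 CPM, and miR-411-5p at 3.74 CPM in the same mouse, with the nearest at 1.89 CPM. The CM arm, with 3 mice, was not examined this way.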

How the results depend on the processing

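Of the alternatives for the months 7 to 10, those that moved the count of 48 higher miRNAs by over 1.5 times were month 7 alone (1), leaving out the last library of each CM mouse (7), limma on the mean log2 CPM per mouse (20) and leaving out mice 3336 and 3335 together (12). Leaving out 1 mouse gave 14 to 100, moved by mice 3335 (29), 3336 (14), 3339 (30), 3346 (26), 3349 (31) and 3368 (100). The 19 lower miRNAs became 42 by DESeq2, 11 without a filter, 0 at month 7 alone, 9 in months 7 to 9, 3 without the last libraries, 35 by limma-voom with month, G number and mouse, and 3 without mice 3336 and 3335. At month 7 alone, 69 miRNAs had an unadjusted p under 0.05. Leaving out 1 mouse gave 4 to 59 lower, moved by mice 3335 (9), 3336 (4), 3339 (9), 3346 (5), 3349 (9), 3368 (59) and 3370 (6). The cause of these moves was not tested, beyond the fewer mice, libraries or miRNAs that some of them hold.

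In months 1 to 6, leaving out 1 mouse gave 6% to 13.2% of the miRNAs tested as higher and 1.61% to 7.26% as lower, moved by mouse 3336 (6% and 1.61%) and mouse 3368 (2.51% lower), and DESeq2 gave 9% lower. At month 0, where edgeR called 0, DESeq2 called 6 higher and 4 lower. For the interaction of arm and period, where edgeR called 0, DESeq2 called 8 higher and 4 lower, leaving out 1 mouse gave 0 to 18 higher and 0 to 6 lower, the highest without mouse 3368, and the replicate block gave 0. The difference in miR-126-3p was 0.70 without the last libraries and 0.85 to 2.26 without 1 mouse, and with 2 CM mice the exact permutation test cannot pass the threshold. MiR-7667-5p, called higher on the raw counts, reversed to -1.37 and -1.40 on the normalized values with pseudocounts of 1 and 0.5 and to -1.67 on the recovered reads, so its direction differs between the deposited tables. Over the single miRNAs, 1061 values kept direction and call, 592 kept direction and lost the call, and 3 reversed.

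The CM arm holds 3 mice, and mouse 3336 has 1 library. The sums are not matched by month, since mouse 3336 ends at month 7 and mouse 3370 at month 9, while most Ctrl mice reach month 10. Arm, long survival and genotype code cannot be told apart.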
